A study of Mus musculus with 5 samples.

Results

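In all, 10 genes of the Hes, Hey, Nrarp and Deltex families were followed in mouse bone marrow-derived macrophages. They were taken by symbol from the deposited count table, and all 10 of the 10 listed were found among its 20583 gene symbols, each with 1 RefSeq transcript row. Bone marrow of C57BL/6 background mice aged 7 to 8 weeks had been grown for 7 days in 25 ng/ml M-CSF, the growth factor that drives marrow cells into macrophages. The groups were wild type (3 libraries, replicates 1 to 3) and NICcA (2 libraries, replicates 2 and 3). The labels do not expand NICcA. In published use it denotes mice in which Cre recombinase turns on expression of a Notch intracellular domain. No source used here names the driver of the recombinase, the animals behind each library or any pooling. The p-values therefore cover variation among the libraries alone, and that variation may be technical.

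Notch receptors are cut at the membrane when a ligand on a neighbouring cell binds, and the freed intracellular domain joins the DNA-binding protein Rbpj in the nucleus and switches genes on. The Hes and Hey genes, which encode basic helix-loop-helix repressors, are the classical readout. Nrarp encodes a small ankyrin repeat protein that binds the Notch complex and dampens it, and Deltex proteins are ubiquitin ligases, of which Dtx1 binds the Notch intracellular domain. Members differ in their roles: Hes6 opposes Hes1, Hes7 is a Notch target that runs the oscillating clock of the embryonic somites, and Dtx3l works with the ADP-ribosyltransferase Parp9 in interferon responses.

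Total counts ran from 57442309 to 76562905 reads per library. Macrophage identity was checked with Csf1r, the M-CSF receptor, which reached 843, 883 and 1146 CPM (counts scaled to 1e+06 reads of the library) in the wild type libraries against 861 and 856 in NICcA. Of the 9 macrophage markers tested, edgeR called 0 and DESeq2 called 1, Fcgr1 (higher, adjusted p = 0.041). Both NICcA libraries lay below every wild type library for 4 of them (Cd68, Mrc1, Mertk and Lyz2), each at an edgeR unadjusted p below 0.05. They lay above for 1, Fcgr1. Over all genes tested, both NICcA libraries lay below in 18.5% and above in 18.3%, and 14.5% reached an edgeR unadjusted p below 0.05. DESeq2 called 4.03% of the genes for which it gave an adjusted p. Among T cell markers, the receptor component Cd3e was near 0, with 0 to 3 reads in every library, but others were not. Cd2 had 148, 148 and 33 reads in wild type against 49 and 84 in NICcA. Cd4 had 36, 73 and 68 reads in wild type against 116 and 61 in NICcA. The library NICcA replicate 2 stood apart in interferon-stimulated genes, whose median log2 deviation, measured against wild type, was 1.90 there and -0.08 in NICcA replicate 3. For Notch1 the wild type libraries gave 78.5, 68.1 and 67.4 CPM and the NICcA libraries 84.2 and 87.6 (edgeR log2 fold change of 0.27 with an SE of 0.11, adjusted p = 0.34).

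Promoter sequences of 6 members were at hand (RefSeq, build GRCm38.p6): Hes6, Hes7, Hey2, Nrarp, Dtx1 and Dtx3l. They were searched on both strands for TGGGAA, the core letters of the Rbpj site, over 300 bases around an annotated start. The core occurred in 25.6% of 32851 promoters of that length and in 2 of the 6, Hes7 and Hey2. The longer form GTGGGAA, which contains the core, occurred in 6.38% of promoters and in the same pair. Nrarp is shown beside them because its counts were higher in both NICcA libraries, while those of Hes7 and Hey2 were low everywhere. The first 270 bases are printed 5′ to 3′ in the direction of the gene, with the core or its complement in capitals.
Nrarp, chr2:25180508-25180777, plus strand: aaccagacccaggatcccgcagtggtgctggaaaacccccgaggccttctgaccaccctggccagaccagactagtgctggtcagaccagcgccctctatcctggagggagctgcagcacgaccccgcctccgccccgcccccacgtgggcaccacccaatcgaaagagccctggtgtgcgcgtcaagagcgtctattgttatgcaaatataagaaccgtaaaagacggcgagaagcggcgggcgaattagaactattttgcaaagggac
Hes7, chr11:69120203-69120472, plus strand: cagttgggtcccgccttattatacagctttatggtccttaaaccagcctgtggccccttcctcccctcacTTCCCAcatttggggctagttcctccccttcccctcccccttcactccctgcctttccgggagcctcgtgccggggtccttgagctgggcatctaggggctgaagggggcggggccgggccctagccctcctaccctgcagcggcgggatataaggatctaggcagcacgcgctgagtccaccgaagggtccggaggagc
Hey2, chr10:30842764-30843033, minus strand: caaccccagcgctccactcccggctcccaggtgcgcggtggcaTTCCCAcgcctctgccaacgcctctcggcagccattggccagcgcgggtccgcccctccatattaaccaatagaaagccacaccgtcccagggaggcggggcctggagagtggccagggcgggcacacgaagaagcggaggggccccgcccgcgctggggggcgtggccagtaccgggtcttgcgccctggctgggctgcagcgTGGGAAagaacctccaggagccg
The Nrarp window held none of these letters. It held 2 matches to CACNAG, the N-box bound by Hes repressors, which 42.5% of all promoters also hold. Counted from the annotated start, the core began at -207 and -3 in Hey2 and at -180 in Hes7. A match is a stretch of letters and not a measured site.

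Hes1 was the member with the largest difference between the genotypes. It had 1, 5 and 6 reads in wild type replicates 1, 2 and 3 and 185 and 125 reads in NICcA replicates 2 and 3. Both NICcA libraries thus lay far above every wild type library. Scaled, the level averaged 0.0589 ± 0.0377 CPM for wild type (mean ± SD, n = 3) against 2.25 ± 0.731 for NICcA (n = 2). Pooled over libraries, the ratio of NICcA to wild type was 36.6, with an exact 95% interval of 20.6 to 71.6 that covers counting error only. The log2 fold change was 5.18 (SE 0.54), which did not pass edgeR's quasi-likelihood test over all genes (Benjamini-Hochberg adjusted p = 0.13). DESeq2 called it (adjusted p = 1.1e-11), and so did edgeR without a filter on low counts (adjusted p = 0.018) or with its newer dispersion method, legacy = FALSE (adjusted p = 0.048). Over all alternatives the adjusted p ran from 1.1e-11 to 0.90, the highest without NICcA replicate 2, where the log2 fold change was 4.81 (SE 0.72). With limma the difference was 1.16 on log2(RPKM + 1) and 3.41 on log2(RPKM + 0.1), scales on which the added constant shrinks the difference of a gene this low. In bulk RNA, more cells that express a gene and more RNA per cell cannot be told apart.

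Nrarp, the feedback inhibitor, was the second member whose libraries did not overlap in the upward direction. It had 4, 18 and 9 reads in wild type against 52 and 49 in NICcA. Its levels were 0.151 ± 0.0889 CPM and 0.729 ± 0.0697 CPM, and the pooled count ratio was 4.61 (exact 95% interval 3.06 to 7.14, counting error only). The edgeR log2 fold change was 2.24 (SE 0.54, adjusted p = 0.28), and DESeq2 called the gene at an adjusted p of 0.046. Leaving out 1 library at a time moved it between 1.92 and 2.78.

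Markers of other cells were examined beside Hes1 and Nrarp, and edgeR called 0 of them. Over all genes tested, both NICcA libraries lay above every wild type library in 18.3% and below in 18.5%. Of 11 dendritic cell markers tested, 7 lay above and 0 below, and DESeq2 called 1, the peptidase gene Dpp4 (adjusted p = 0.032). Their summed level was 744 to 939 CPM for wild type against 688 to 1049 for NICcA, with none at 0. Most of that sum was Itgax, which macrophages also express. Without it, a choice made after seeing the data, the other 10 markers summed to 83.5, 130.5 and 74.6 CPM for wild type against 243 and 136 for NICcA, and the groups did not overlap. Ccr7 alone gave 33.5, 77.6 and 23.7 CPM of that sum for wild type against 166 and 69.4 for NICcA, so its own groups overlapped. The log2 fold change was positive for 9 of the 11 markers and negative for Itgax (-0.19) and Clec9a (-1.14). Of 10 mast cell and basophil markers 8 were tested, of which 6 lay above and 0 below, with sums of 10.02 to 30.8 CPM for wild type against 41.8 and 70.8 for NICcA. The mast cell protease gene Cpa3 had 593, 396 and 152 reads in wild type against 1519 and 1141 in NICcA (DESeq2 adjusted p = 0.049), while Mcpt4, another protease gene, had 0 or 1 read in every library. Of 9 T cell markers found, 8 were tested, 5 lay above and 0 below, with sums of 2.90 to 4.75 and 4.31 to 5.03 CPM and 0 calls by DESeq2. Among 7 erythroid and megakaryocyte markers tested, 2 lay above and 1 below, and DESeq2 called 1, Itga2b (higher, adjusted p = 0.00019). Among 10 neutrophil markers tested, 3 lay above and 0 below, and DESeq2 called 1, Ngp (higher, adjusted p = 0.035). The neutrophil markers summed to 831, 661 and 1011 CPM for wild type against 599 and 741 for NICcA. Mmp8, within that sum, had a log2 fold change of -0.46. DESeq2 called 4.03% of all genes for which it gave an adjusted p. Among 7 stromal cell markers tested, 1 lay above and 0 below, with 0 calls by DESeq2. Their sums were 27.8, 6.54 and 2.49 CPM for wild type against 17.9 and 16.5 for NICcA. Col3a1, 1 of the stromal markers, had 419 reads in wild type replicate 1 and 1 or 2 in every other library. Endothelial and B cell markers are given with Hey1. The part of all these cells in the Hes1 and Nrarp counts was not tested.

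**Figure D1:**
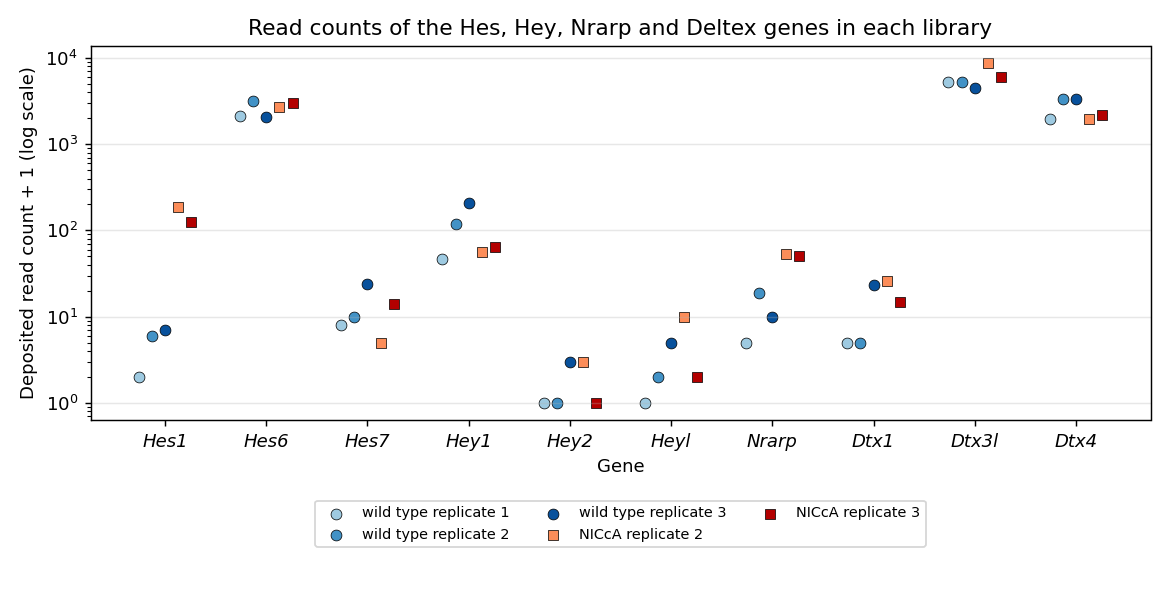
Deposited read counts plus 1 on a log axis for the 10 genes, with 1 point per library (blue circles, wild type; red and orange squares, NICcA). Hes1 (185 and 125 reads against 1, 5 and 6) and Nrarp (52 and 49 against 4, 18 and 9) separate upward, while Hey2 and Heyl stay at or under 9 reads.

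The remaining Hes genes did not separate the genotypes. Hes6, the Hes1 antagonist, was the most abundant member, with 2106, 3152 and 2068 reads in wild type and 2670 and 3019 in NICcA. Per CPM it was 37.0 ± 5.83 and 40.9 ± 1.35, the groups overlapped, and the edgeR log2 fold change was 0.15 (SE 0.15, adjusted p = 0.66). Hes7, the somite clock gene, had 7, 9 and 23 reads in wild type and 4 and 13 in NICcA. Its pooled ratio of 0.617 had an exact 95% interval of 0.327 to 1.12, so no difference was detectable at this depth. Its log2 fold change of -0.70 (SE 0.79) ranged from -1.69 without NICcA replicate 3 to -0.13 without NICcA replicate 2.

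Hey1, a repressor known for its part in endothelial and cardiac Notch responses, had 46, 118 and 205 reads in wild type and 55 and 64 in NICcA. Wild type replicate 1 lay below both NICcA libraries and the other wild type libraries lay above them, so the groups overlapped. The level averaged 1.84 ± 1.17 CPM for wild type against 0.855 ± 0.0456 for NICcA, with an edgeR log2 fold change of -1.11 (SE 0.57, adjusted p = 0.40). Without wild type replicate 3 it was -0.50 (SE 0.43). The endothelial gene Cdh5 was also lower in NICcA, at 2.41, 6.73 and 3.87 CPM against 1.63 and 2.12 CPM, whereas Pecam1 was higher, at 6.09, 1.97 and 1.81 against 9.77 and 8.00 CPM. DESeq2 called 1 endothelial marker, the adhesion gene Esam, at 0.364, 0.123 and 0.197 CPM for wild type against 1.81 and 0.596 for NICcA (adjusted p = 0.044). The summed level of the 10 endothelial markers was 177 to 229 CPM for wild type against 176 and 178 for NICcA, and none was at 0 in all libraries. Most of that sum was Vwf, at 145, 181 and 164 CPM for wild type against 108 and 137 for NICcA. Of 7 endothelial markers tested, 2 lay above and 2 below, where 18.3% and 18.5% of all genes did. The part of the endothelial markers in the Hey1 values was not tested. The B cell markers summed to 45.4, 71.8 and 89.6 CPM for wild type and 40.7 and 36.7 for NICcA, and of 4 tested 0 lay above and 1 below. The part of the B cell markers in the Hey1 values was not tested either.

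The deposited tables disagreed on Hey1. The first gives counts and RPKM (reads scaled to transcript length and to library size), and there Hey1 stood at 0.293, 0.567 and 1.10 RPKM in wild type and 0.318 and 0.344 RPKM in NICcA. The second table, which holds RPKM only, gives the same values for wild type replicate 1 and both NICcA libraries but 0.00234 and 0.0104 RPKM for wild type replicates 2 and 3. Those 2 values equal the Heyl values of the same libraries in the first table, and Heyl is the 1 row of the first table without a counterpart in the second. Converted with the median factor of each library, they correspond to 0.487 and 1.95 reads of Hey1, where the first table lists 118 and 205. On log2(RPKM + 1) with limma, Hey1 had a difference of -0.28 (SE 0.21, adjusted p = 0.48) in the first table and 0.28 (SE 0.16, adjusted p = 0.37) in the second, so the choice of table turns its direction. Counts and RPKM of all 10 members were mutually consistent in the first table, which was used throughout.

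**Figure D2:**
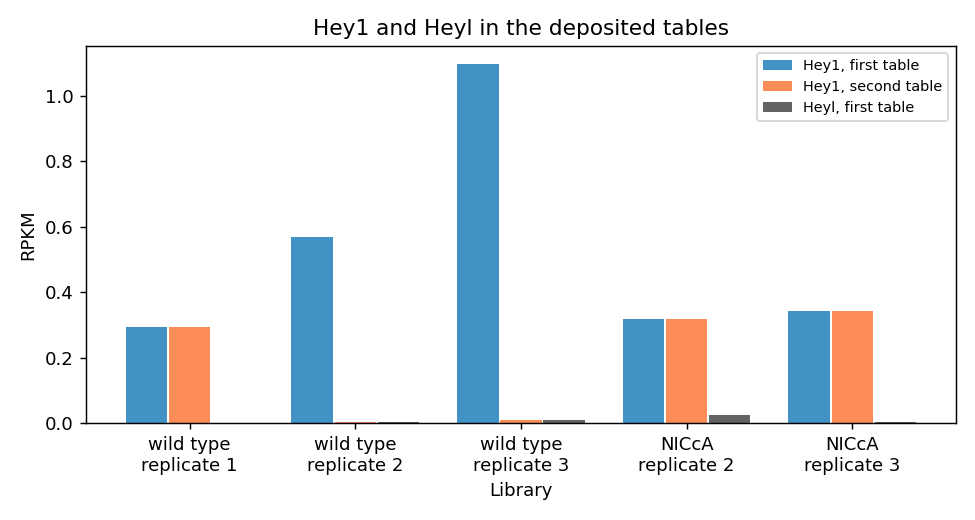
RPKM by library for Hey1 in the first table (blue bars), Hey1 in the second table (orange bars) and Heyl in the first table (grey bars). The Hey1 bars coincide in 3 libraries and part in wild type replicates 2 and 3, where the second table holds 0.00234 and 0.0104 RPKM against 0.567 and 1.10.

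Hey2 and Heyl, the other Hey genes, lay at the limit of detection. Hey2 had 0, 0 and 2 reads in wild type and 2 and 0 in NICcA, and Heyl had 0, 1 and 4 reads against 9 and 1. A count of 0 allows up to 3 reads, or 0.0409 to 0.0521 CPM depending on the library. The pooled ratios were 1.42 for Hey2 (exact 95% interval 0.103 to 19.5) and 2.83 for Heyl (0.882 to 10.6), counting error only, and no difference was detectable at this depth. Both failed the filter on low counts and were not tested.

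Dtx1, the Deltex gene best known as a Notch target in lymphocytes, had 4, 4 and 22 reads in wild type and 25 and 14 in NICcA. Wild type replicate 3 lay between the NICcA libraries, and the others lay below them. The edgeR log2 fold change was 0.88 (SE 0.86, adjusted p = 0.64). Leaving out wild type replicate 3 gave 2.17, and leaving out NICcA replicate 2 gave 0.34.

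Dtx4, which encodes a ubiquitin ligase of the same family, went the other way. It had 1942, 3342 and 3339 reads in wild type and 1944 and 2181 in NICcA. Scaled, the wild type libraries stood at 33.7, 45.6 and 50.7 CPM against 29.1 and 30.2 in NICcA, so that both NICcA libraries lay below all wild type libraries. The edgeR log2 fold change was -0.55 (SE 0.19, adjusted p = 0.32), it stayed between -0.70 and -0.42 with any 1 library left out, and DESeq2 gave an adjusted p of 0.14.

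Dtx3l, the Parp9 partner, had 5313, 5197 and 4479 reads in wild type and 8746 and 6045 in NICcA. Its CPM values were 92.2, 70.9 and 68.0 in wild type and 131 and 83.8 in NICcA, so NICcA replicate 3 lay inside the wild type range. The edgeR log2 fold change of 0.48 (SE 0.23, adjusted p = 0.37) was 0.12 without NICcA replicate 2 and 0.77 without NICcA replicate 3. NICcA replicate 2 was also the library with high interferon-stimulated genes. Parp9 gave 78.9, 77.9 and 75.8 CPM in the wild type libraries against 111 and 71.7 in NICcA. Parp14, another ADP-ribosyltransferase of the interferon response, stood at 1.73 times the wild type mean in NICcA replicate 2 and 0.831 times in NICcA replicate 3. Isg15, a ubiquitin-like interferon product, stood at 21.6 and 1.07 times. Ifi44, another interferon-stimulated gene, had 77, 103 and 37 reads in wild type against 1925 and 99 in NICcA. For Dtx3l itself these ratios were 1.70 and 1.09. All 30 interferon-stimulated genes tested had a positive log2 fold change, and 2 of 30 separated the groups upward, where 18.3% of all genes did. Of the 30, 0 were called by edgeR or DESeq2 (17 at an unadjusted p below 0.05, a level reached by 14.5% of all genes). The part of the interferon genes' source in the Dtx3l values was not tested.

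**Figure D3:**
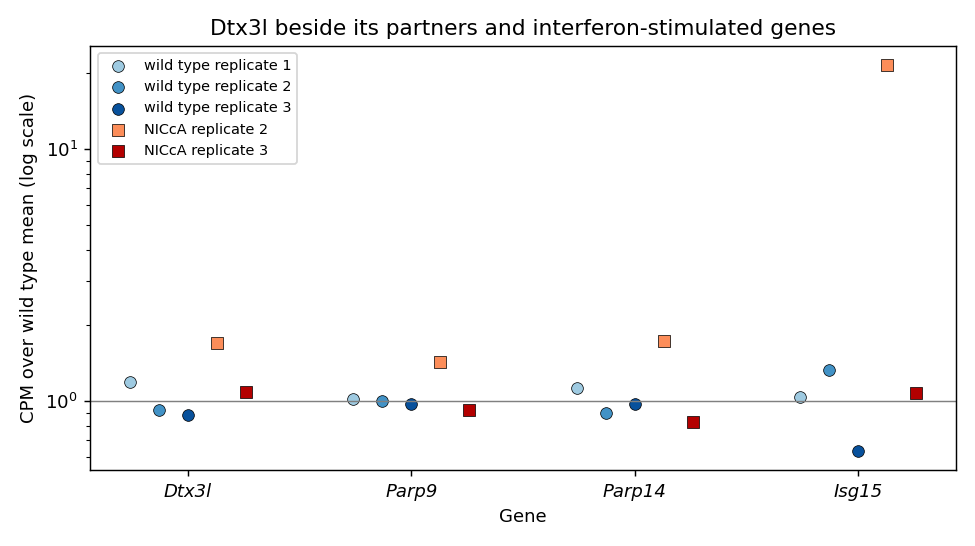
CPM of each library divided by the wild type mean of the gene, on a log axis, for Dtx3l, Parp9, Parp14 and Isg15 (circles, wild type; squares, NICcA). NICcA replicate 2 is the highest library for every gene, from 1.44 times the wild type mean for Parp9 to 21.6 times for Isg15, and NICcA replicate 3 lies between 0.831 and 1.09 times.

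Across the members, 8 of 10 passed the filter and 0 were called by edgeR at an adjusted p below 0.05, where 0.03% of the 13341 genes tested were called. At an unadjusted p below 0.05 there were 3, Hes1, Nrarp and Dtx4, against 14.5% of all genes. DESeq2 called 2, Hes1 and Nrarp, against 4.03% of the genes for which it gave an adjusted p. Both NICcA libraries lay above all wild type libraries in 2 of the 8 tested members (25%) and in 18.3% of genes tested. They lay below in 1 of the 8 and in 18.5% of genes. The share of tested members that separate was thus near that background in both directions. Of the 8 tested members, 5 had positive and 3 negative log2 fold changes, with a median of 0.31 against 0.00 over all genes tested.

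**Figure D4:**
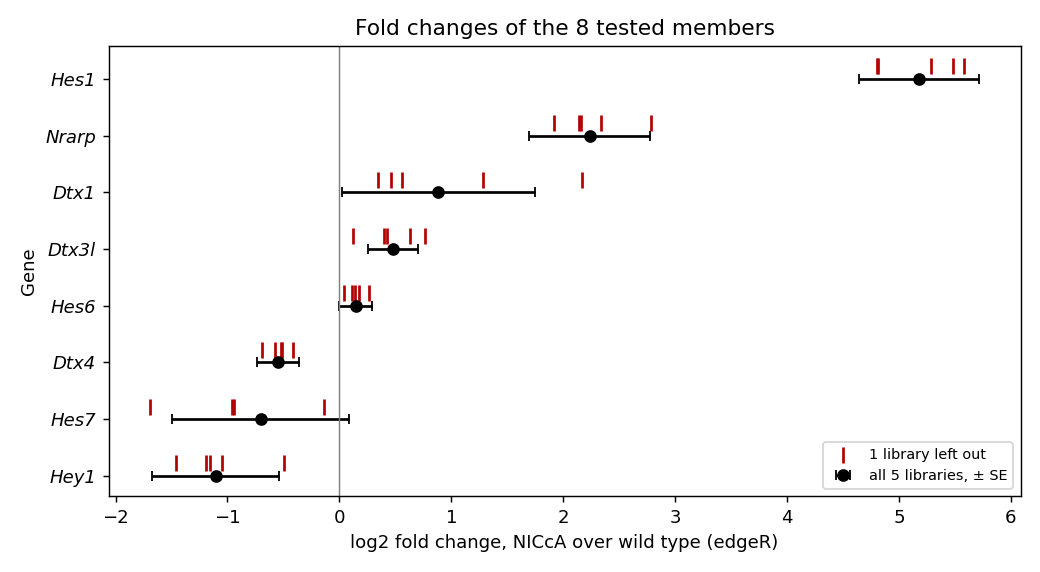
Log2 fold change of NICcA over wild type for the 8 tested members (black points, all libraries, bars ± SE; red ticks, fits without 1 library). Hes1 lies at 5.18 and Nrarp at 2.24, Dtx4, Hey1 and Hes7 lie below 0 in every fit shown, and Dtx3l ranges from 0.12 to 0.77.

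Levels between genes were compared on the RPKM scale, which accounts for transcript length. In wild type the order was Hes6 (21.8 ± 3.39 RPKM), Dtx3l (11.8 ± 2.32), Dtx4 (5.90 ± 1.07), Hey1 (0.653 ± 0.408) and Hes7 (0.161 ± 0.104). Below these, Nrarp (0.0457), Dtx1 (0.0321), Hes1 (0.0317), Heyl (0.00425) and Hey2 (0.00311) followed, and the library ranges of neighbours in this order overlapped. In NICcA, Hes1 took the fourth place at 1.32 ± 0.426 RPKM, after Hes6 (26.1 ± 0.939), Dtx3l (17.7 ± 5.42) and Dtx4 (4.38 ± 0.133) and before Hey1 (0.331 ± 0.0186) and Nrarp (0.241 ± 0.0224). Even there, the mean of Hes1 was below that of the 3 most abundant members, whose genotype differences were all within 1 log2 unit.

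Among the other Hes-related and Deltex genes, 5 of 8 were tested and 0 were called by edgeR or DESeq2 (1 lower at an unadjusted p below 0.05). That gene was Bhlhe41, a repressor related to the Hes proteins, with 99.1, 175 and 143 CPM in the wild type libraries against 92.1 and 87.0 in NICcA (edgeR log2 fold change of -0.63 with an SE of 0.24, adjusted p = 0.33). Dtx3 averaged 37.0 ± 6.60 CPM in wild type against 32.4 ± 1.89 in NICcA (edgeR log2 fold change of -0.19 with an SE of 0.16, adjusted p = 0.59). Of 17 tested genes from a list of other Notch-responsive genes, edgeR called 0 and DESeq2 called 3, all higher, where DESeq2 called 4.03% of all genes. Genes at an unadjusted p below 0.05 were 6 higher and 1 lower (14.5% of all genes in either direction), both NICcA libraries lay above every wild type library in 8 and below in 1 (18.3% and 18.5% of all genes), and the list's median log2 fold change was 0.46. Bcl2, the survival factor, read 7.46, 6.40 and 6.95 CPM in the wild type libraries against 17.9 and 13.6 in NICcA. The list includes Gata2, Tcf7 and Kdr, which also stand among the mast cell, T cell and endothelial markers. Myc, the growth regulator, was at 8.19, 8.68 and 8.18 against 13.5 and 11.8 CPM.

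Receptors, ligands, processing enzymes and nuclear partners of Notch had a median log2 fold change of -0.08 over 33 tested genes. EdgeR called 0 of them (6 higher and 4 lower at an unadjusted p below 0.05, where 14.5% of all genes lie). Both NICcA libraries lay above every wild type library in 6 and below in 11 (18.3% and 18.5% of all genes). DESeq2, which called 4.03% of all genes with an adjusted p, called 1 higher, the coactivator Maml3, and 1 lower. The lower one was Fbxw7, the ubiquitin ligase that marks the Notch intracellular domain for destruction, with 28.9, 33.6 and 30.3 CPM in the wild type libraries against 21.0 and 22.6 in NICcA (edgeR log2 fold change of -0.51 with an SE of 0.12, adjusted p = 0.27). Rbpj gave 107, 64.6 and 64.6 CPM in the wild type libraries against 165 and 109.8 in NICcA (edgeR log2 fold change of 0.80 with an SE of 0.29, adjusted p = 0.33). Corepressors of the Hes, Hey and Rbpj proteins had a median of -0.05 over 20 tested genes, with 0 called by edgeR or DESeq2 and 1 higher at an unadjusted p below 0.05. That one was Hdac1, a histone deacetylase, at 24.5 ± 4.04 and 33.2 ± 0.105 CPM. Tle4, a Groucho corepressor that Hes proteins recruit, was at 21.3 ± 4.52 and 16.7 ± 1.86 CPM.

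The genes whose pattern over the 5 libraries was most like a member's were ranked by the root mean square difference of centred log2 CPM, as a description. For Hes1 these were Mmp9, a gelatinase (difference 0.43), Apol7c, an apolipoprotein L gene (0.46), and Gm2016 (0.58), among 13288 genes. Mmp9, which passed edgeR's test (adjusted p = 0.0067), read 0.833, 0.901 and 1.32 CPM in the wild type libraries against 20.9 and 22.4 in NICcA, and Apol7c passed it at the same adjusted p. For Nrarp they were Acvr1c (0.23), Tdgf1 (0.29) and Gm266 (0.30), and Acvr1c, a receptor of the TGF-beta family, was itself at 0.0347 to 0.0955 CPM in wild type. For Dtx4 they were Gpr155 (0.017), Enpp1 (0.039) and Rhoj (0.044) among 11254 genes, and Gpr155 was at 21.5, 29.7 and 33.3 CPM against 18.7 and 19.8 CPM. For Dtx3l they were Prdx6 (0.044), Gpr19 (0.067) and Hat1 (0.069). Prdx6, a peroxiredoxin, had its highest level, 65.1 CPM, in NICcA replicate 2, as Dtx3l did.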

How the data were processed

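The authors deposited 2 tables for the 5 libraries. The first holds raw read counts and RPKM for 27457 RefSeq transcript rows, and the second holds RPKM for 64528 rows, per the file headers. Bowtie 0.12.2 and genome build mm8 are listed, per the submitters' processing notes. No source used here states how reads were assigned to transcripts or whether strand was used.

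Members and gene lists were chosen with earlier results of these data known. Where a gene has several rows, that with the most reads on average stands for it. Counts were fitted over 18267 rows with edgeR 4.0.16 (R 4.3.3), using filterByExpr, TMM scaling and the quasi-likelihood functions glmQLFit and glmQLFTest with genotype as the only term, with Benjamini-Hochberg adjustment and a threshold of 0.05. The SE is the absolute log2 fold change over the square root of F. CPM uses TMM-scaled library sizes, and log2 CPM a prior count of 2. Ratios of pooled counts have exact conditional binomial intervals. Alternatives used DESeq2 1.42.0, limma 3.58.1 on log2(RPKM + 1) or log2(RPKM + 0.1), other scaling and filters, and each library left out. Only the main edgeR fit was run on simulated data, with differences placed in genes at a mean of at least 1 CPM. That run does not cover members below this level or the alternative fits. Per list other than the cell type markers, the 2 genes with the smallest p are named where none passed. Notch1, Rbpj, Bcl2, Parp9 and the 3 genes most like Hes1, Nrarp, Dtx4 and Dtx3l were also named by rule; 1 gene of the rule is not reported here. Parp14, Csf1r, the single markers and the genes of the closing section outside these rules were chosen after their values were seen.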

Additional observations from a re-analysis of the deposited data

How the results depend on the processing

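EdgeR called 4 genes and 0 members. Without a filter on low counts it called 11 genes and 1 member, Hes1, and with legacy = FALSE 8 genes and 1 member, again Hes1. DESeq2 called 527 genes and 2 members. Limma called 2 genes with either pseudocount (1 or 0.1) and 0 members. Leaving out 1 library gave 0 to 44 genes and 0 members. RLE factors, no scaling factors, at least 1 CPM in 2 libraries and 1 row per gene gave 3 to 5 genes and 0 members. The sign of all 8 tested members was kept under each of these settings in which they were fitted. Among the alternatives added after seeing the data, Hey1 turned to 0.28 in the second table, where 2 of its values differ. The replicate block called 0 genes (2480 at an unadjusted p below 0.05) and 0 members. The replicate numbers are shared labels, and a pairing was not established. Deviations from the group mean correlated at 0.21 for the libraries numbered 2 and 0.17 for those numbered 3. With 2 NICcA libraries, their deviations mirror each other. Both correlations therefore rest on the same NICcA difference and cannot show a pairing. The block left Hes1 at 4.77 (SE 0.47, edgeR adjusted p = 0.095). Depth limits Hes7, Hey2 and Heyl, and with 2 NICcA libraries 1 library can end or make a call; the cause of the moved counts was not tested.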

Other observations

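The check of Hey1 was extended to every row of the first table, since count divided by RPKM should follow 1 conversion factor per library and 1 length per row. Of 25465 rows with a value above 0, 8 departed from this by a relative difference over 0.001, and 0 of them were members of the Hes, Hey, Nrarp or Deltex genes. In 6 of the 8 rows the conflict disappeared when the factors of 2 libraries were exchanged. For 5 rows, of Il1a, Il1b, Il12b and both rows of Il12a, these were wild type replicate 2 and NICcA replicate 3. For the row of Il4 they were wild type replicate 2 and NICcA replicate 2. Il1b, which encodes the cytokine interleukin-1 beta, is listed with 957, 1049 and 975 reads in wild type and 33504 and 5511 in NICcA replicates 2 and 3. By this arithmetic, the 1049 carries the factor of NICcA replicate 3 and the 5511 that of wild type replicate 2. Il6 passed the check in the first table, with 168 reads in wild type replicate 2 and 7 in NICcA replicate 3, but in the second table its RPKM values of those libraries, 1.64 and 0.0763, are interchanged. The remaining 2 rows, of Slc16a8 and Vcam1, fitted no single exchange. The origin of these differences was not tested.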
